A study of Homo sapiens with 6 samples.

Results

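Mitosis and G2/M genes encode the machinery that takes a cell from the end of DNA replication through chromosome segregation to division. A set of 40 such genes was described here, chosen by symbol for their function as mitotic kinase, spindle, kinetochore and cytokinesis genes. All 40 stood once each among the 37887 rows of the count table and all 40 were among the 15355 genes tested. RNA-seq had been run on MDA-MB-436 cells, an established triple-negative breast cancer line with mutant BRCA1 that carried a tetracycline-inducible MUC1 shRNA in all 6 libraries. The control group was 3 libraries from cells given vehicle (0.1% DMSO), and the shMUC1 group was 3 libraries from cells given 500 ng/ml doxycycline. The comparison addressed which transcripts change when MUC1, a transmembrane mucin, is silenced. The titles name the control a control shRNA, while the treatment labels name vehicle, and the treatment labels were followed. Doxycycline was given to every shMUC1 library and to no control library, so its own effect cannot be told apart from silencing, and 1 shRNA in 1 line was used. The study's methods say that cells were cultured in triplicate for RNA-seq. Neither they nor the labels say whether the cultures were started independently, so p-values measure the spread between these cultures. The labels do not give the treatment time.

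Entry into mitosis is driven by the kinase CDK1 bound to cyclin A or cyclin B, and is switched on by CDC25 phosphatases. The spindle checkpoint holds the anaphase-promoting complex (APC/C, a ubiquitin ligase) inactive until every kinetochore is attached. CDC20 then lets the APC/C destroy cyclin B and securin, and freed separase cuts the cohesin that joins sister chromatids. Most of these genes are transcribed late in the cell cycle by the MuvB complex with B-MYB and FOXM1, often through a promoter element called the cell cycle gene homology region (CHR). Their summed RNA is widely used as a gauge of how many cells of a tumour are dividing.

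Libraries held from 18678307 to 27825546 counts. MUC1 had 93, 84 and 102 counts in the control group and 72, 51 and 34 after silencing, a log2 fold change of -0.84 (SE 0.214, edgeR adjusted p 0.00119). Among identity markers, the triple-negative label was met by ESR1 and PGR, at 12 counts or fewer in every library, while ERBB2 was at 38.4 to 47.3 CPM (counts scaled to the size of each library). Markers also moved with the group. VIM went from 718 ± 26.0 to 417 ± 25.2 CPM and KRT8 from 426 ± 15.0 to 825 ± 14.6 CPM (SD, n = 3 each), with KRT18 at 131 ± 4.01 and 266 ± 6.11 CPM. The epithelial markers examined were KRT8, KRT18, KRT19, GRHL2 and RAB25. Of these, KRT19, GRHL2 and RAB25 had 4 counts or fewer in every library. PTPRC and PECAM1, of blood and endothelium, had 40 counts or fewer in every library, with log2 fold changes of 1.59 and -1.94 (edgeR adjusted p 0.0113 and 0.00032). These markers moved with the group beside every gene described here, and their part in the results was not tested.

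The mitotic genes were lower as a group in shMUC1 cells, by a modest amount and not uniformly. The 40 genes together took 0.83%, 0.82% and 0.82% of all counts across the control libraries. Their share of the shMUC1 libraries was 0.729%, 0.701% and 0.739%. The 3 shMUC1 libraries all lay below the 3 control libraries in that share. In bulk RNA, fewer cells in G2 and mitosis and less of each transcript per cell cannot be told apart. Of the 40 genes, 23 were lower and 2 were higher at an adjusted p under 0.05, and 15 were not called. Calls in either direction thus took in 25 of 40, where 48.7% of all tested genes were called. That is 57.5% lower, where 23.6% of all tested genes were lower, and 5.0% higher, where 25.2% of all tested genes were higher. Most of these genes are abundant, and abundant genes are called more readily. Among the 35 members averaging 1000 counts or more, 20 were lower and 2 higher. Of all 5162 tested genes at that depth, 29.4% were lower and 39.4% higher. The median log2 fold change was -0.21 over the 40 genes and 0.00058 over all tested genes. It was -0.16 over the 35 abundant members and 0.04 over the 5162 genes of that depth.

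The changes were small. None of the 40 genes passed the fold change over 2 that the study also required, which 2.21% of tested genes passed upward and 3.74% downward. When a change of more than a 25% rise or a 20% fall was also required, 12 were lower and 0 higher, where 15.4% of tested genes were lower and 13.4% higher. In CPM, control and shMUC1 libraries did not overlap for 22 genes that were lower and 3 that were higher. Of all tested genes, 54.8% did not overlap, 26.8% with shMUC1 lower and 28.1% with it higher. Within the shMUC1 group, replicate 3 was the highest of the 3 libraries for 26 of the 40 genes, and replicate 2 for 5. Without shMUC1 replicate 3 the median was -0.24 and 26 genes were lower, and without shMUC1 replicate 1 the median was -0.18 and 21 were lower.

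**Figure D1:**
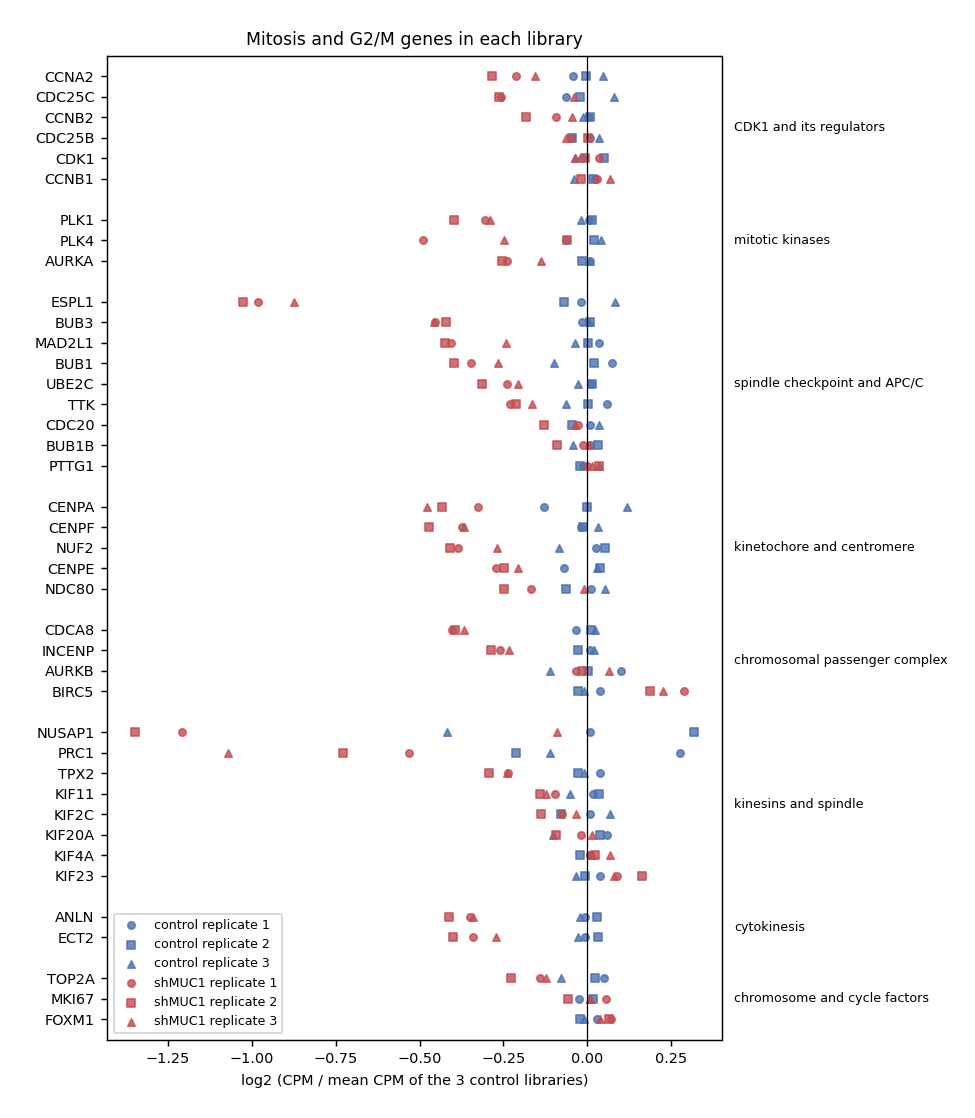
Level of each of the 40 mitosis and G2/M genes in each library, as log2 of CPM over the mean CPM of the 3 control libraries (x axis), with genes grouped by role (y axis) and 1 symbol per library. The shMUC1 symbols sit left of the control symbols for most kinetochore, checkpoint, kinase and cytokinesis genes and among them for CDK1, CCNB1, MKI67 and AURKB.

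Of the cyclin-CDK1 switch, cyclin B1 and CDK1 were not called and cyclin A2 was lower. CCNB1, the main mitotic cyclin (chr5:69167010-69178245 in GRCh38), stood at 549, 547 and 525 CPM in control and 551, 534 and 567 CPM in shMUC1 libraries. The groups overlapped, with a log2 fold change of 0.03 and a 95% interval from -0.0364 to 0.0888. CDK1, its kinase partner (chr10:60778331-60794852), stood at 164, 171 and 162 CPM in control and 170, 165 and 162 CPM in shMUC1 libraries. Its log2 fold change was -0.0021, with a 95% interval from -0.0784 to 0.0741. Both intervals lie within 0.1 log2 units of no change.

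CCNA2, the cyclin that acts from S phase into early mitosis, was the only called gene among 6 in this role. Its mean was 83.5 ± 2.62 CPM in control and 71.8 ± 3.18 CPM in shMUC1 cells (SD over 3 libraries), for a log2 fold change of -0.22 (SE 0.0479, edgeR adjusted p 0.000219), and its groups did not overlap. CCNB2 lay at the threshold, with a log2 fold change of -0.11 and an edgeR adjusted p of 0.0512, though its control libraries, at 86.3 to 87.5 CPM, all lay above its shMUC1 libraries, at 76.6 to 84.3 CPM. It passed in 8 of 15 alternatives, among them the fits without control replicate 3 (-0.13) and without shMUC1 replicate 3 (-0.13). The phosphatases that activate CDK1 were not called, with log2 fold changes of -0.04 for CDC25B and -0.19 for CDC25C (adjusted p 0.354 and 0.0901). CDC25C passed only without shMUC1 replicate 3, at -0.26 (adjusted p 0.039).

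The 3 genes grouped here as mitotic kinases, PLK1, AURKA and PLK4, were all lower. Other mitotic kinases among the members were grouped with their complexes below. Of these, BUB1 and TTK were lower and AURKB was not called. PLK1, which acts on centrosomes, kinetochores and the cleavage furrow (chr16:23677656-23690367), stood at 195, 197 and 192 CPM in control and 158, 148 and 159 CPM in shMUC1 libraries. It fell by 20.5%, a log2 fold change of -0.33 (SE 0.0374, edgeR adjusted p 2.00e-09). AURKA, the centrosome and spindle pole kinase, stood at 216, 212 and 216 CPM in control and 181, 180 and 195 CPM in shMUC1 libraries. Its log2 fold change was -0.21 (SE 0.0365, edgeR adjusted p 7.36e-06), and the groups of both kinases did not overlap. PLK4, the kinase of centriole duplication, had a log2 fold change of -0.26 (SE 0.0879, edgeR adjusted p 0.014) with overlapping groups. Its call rested on 1 library: without shMUC1 replicate 1, at 18.3 CPM the lowest of the 6, the log2 fold change was -0.14 (adjusted p 0.208). DESeq2 gave it an adjusted p of 0.0519.

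Genes of the spindle checkpoint and APC/C held the largest fall. ESPL1 encodes separase, the protease that cleaves cohesin (chr12:53268299-53293643). It stood at 54.9, 52.9 and 58.8 CPM in control and 28.1, 27.3 and 30.3 CPM in shMUC1 libraries. ESPL1 fell by 48.8%, a log2 fold change of -0.96 (SE 0.0639, edgeR adjusted p 1.99e-15), and was at -0.93 or below whichever library was left out. PTTG1 encodes securin, the inhibitor that binds separase. It stood at 107, 106 and 110 CPM in control and 107, 110 and 108 CPM in shMUC1 libraries, with a log2 fold change of 0.01 and a 95% interval from -0.0679 to 0.0977. The interval for ESPL1, from -1.09 to -0.835, lay far below that of securin.

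BUB3, a subunit of the mitotic checkpoint complex (chr10:123154277-123170467), had the largest fall after ESPL1 among members with at least 100 counts on average. It stood at 257, 261 and 260 CPM in control and 189, 194 and 189 CPM in shMUC1 libraries, a log2 fold change of -0.44 (SE 0.0339, edgeR adjusted p 1.03e-13). BUB1, the checkpoint kinase that BUB3 brings to kinetochores, stood at 298, 287 and 265 CPM in control and 223, 215 and 236 CPM in shMUC1 libraries. Its log2 fold change was -0.34 (SE 0.039, edgeR adjusted p 3.41e-09). BUB1B, which encodes the BUB1-related checkpoint protein BUBR1, was not called, with 179 ± 4.67 CPM in control and 175 ± 6.16 CPM in shMUC1 cells (SD, n = 3 each) and a 95% interval for its log2 fold change from -0.109 to 0.043. That interval lies above the interval of BUB1, from -0.415 to -0.257.

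MAD2L1, which encodes the checkpoint protein MAD2, had a log2 fold change of -0.36, and TTK, the kinase that starts the checkpoint, one of -0.20 (adjusted p 8.77e-06 and 0.000112). UBE2C, the ubiquitin-conjugating enzyme that serves the APC/C, had a log2 fold change of -0.25 (adjusted p 8.96e-08). CDC20, the activator of the APC/C, stood at 398, 384 and 406 CPM in control and 389, 362 and 386 CPM in shMUC1 libraries. Its groups overlapped, with a log2 fold change of -0.06 and an edgeR adjusted p of 0.113. It passed in 3 of 15 alternatives, 1 of them without control replicate 2, at -0.08 (adjusted p 0.0481).

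**Figure D2:**
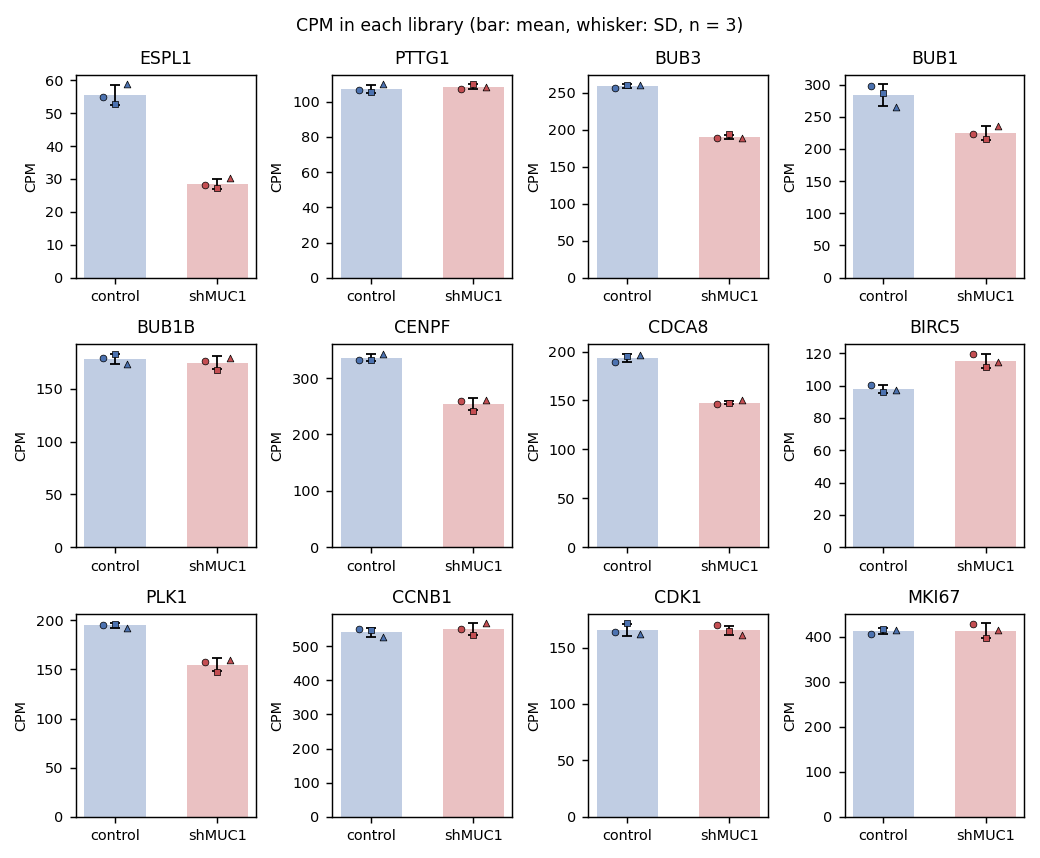
CPM in each library (points), mean (bars, from 0) and SD (whiskers, n = 3) for 12 genes in control and shMUC1 cells. ESPL1 drops from a mean of 55.5 to 28.5 CPM while PTTG1 stays at 107 and 109 CPM, and BUB3, BUB1, CENPF, CDCA8 and PLK1 are lower in all 3 shMUC1 libraries.

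All 5 kinetochore and centromere genes were lower. CENPF, a large kinetochore and nuclear matrix protein (chr1:214603195-214664588), stood at 332, 333 and 343 CPM in control and 259, 242 and 260 CPM in shMUC1 libraries, a log2 fold change of -0.40 (SE 0.0341, edgeR adjusted p 1.42e-12). CENPA, the histone H3 variant that marks centromeres (chr2:26764289-26801067), stood at 19.2, 21.0 and 22.8 CPM in control and 16.8, 15.5 and 15.1 CPM in shMUC1 libraries. Its log2 fold change was -0.41 (SE 0.091, edgeR adjusted p 0.000268). The groups did not overlap for either gene. CENPE, a kinesin that moves chromosomes to the spindle equator, had a log2 fold change of -0.24 (adjusted p 9.03e-06).

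NUF2 and NDC80 encode partners in the complex that ties kinetochores to microtubules. NUF2 had a log2 fold change of -0.36 (SE 0.0522, edgeR adjusted p 4.16e-07), with groups apart. NDC80 had a log2 fold change of -0.14 (SE 0.0596, edgeR adjusted p 0.0428), with overlapping groups. The NDC80 call was lost with DESeq2 (adjusted p 0.114), with no low-count filter (adjusted p 0.0683) and without control replicate 1, control replicate 3, shMUC1 replicate 1 or shMUC1 replicate 2, where it was -0.14, -0.13, -0.13 and -0.09.

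The chromosomal passenger complex, which corrects faulty attachments and guides cytokinesis, split in direction. CDCA8 encodes borealin (chr1:37692418-37709719) and stood at 189, 195 and 197 CPM in control and 146, 147 and 150 CPM in shMUC1 libraries. It fell by 23.7%, a log2 fold change of -0.39 (SE 0.0364, edgeR adjusted p 1.94e-11). INCENP, the scaffold, had a log2 fold change of -0.26 (SE 0.0377, edgeR adjusted p 3.20e-07). AURKB, the kinase of the complex, stood at 87.0, 81.1 and 75.0 CPM in control and 79.2, 80.2 and 84.7 CPM in shMUC1 libraries. Its log2 fold change was 0.0048, with a 95% interval from -0.097 to 0.107.

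BIRC5 encodes survivin, the subunit that docks the complex on chromatin and is also known as an inhibitor of apoptosis (chr17:78214186-78225636). It stood at 101, 96.0 and 97.2 CPM in control and 120, 111 and 114 CPM in shMUC1 libraries, so every shMUC1 library lay above every control library. BIRC5 rose by 0.24 on the log2 scale (SE 0.0422, edgeR adjusted p 1.37e-05). Its 95% interval, from 0.15 to 0.321, lay above those of CDCA8, from -0.464 to -0.316, and INCENP, from -0.338 to -0.185. The BIRC5 rise kept its direction and call in all 15 alternatives.

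Among 8 kinesin and spindle genes, 3 were lower and 1 was higher. TPX2, which activates AURKA and nucleates spindle microtubules, had a log2 fold change of -0.26 (SE 0.0311, edgeR adjusted p 9.61e-09). KIF11, the motor that pushes spindle poles apart, had one of -0.12 (SE 0.0371, edgeR adjusted p 0.00729). KIF23, a motor of the central spindle (chr15:69414246-69448427), stood at 75.8, 73.6 and 72.2 CPM in control and 78.6, 82.7 and 78.1 CPM in shMUC1 libraries, a log2 fold change of 0.11 (SE 0.047, edgeR adjusted p 0.0451). The KIF23 groups did not overlap, but its call was lost in 8 of 15 alternatives, with DESeq2 (adjusted p 0.0886) and without control replicate 2, control replicate 3, shMUC1 replicate 1 or shMUC1 replicate 2 among them (log2 fold changes of 0.11, 0.08, 0.13 and 0.09). KIF2C, KIF20A and KIF4A were not called, with log2 fold changes of -0.08, -0.03 and 0.03. KIF2C passed in 3 of 15 alternatives, with library totals only (-0.10, adjusted p 0.0346), with genes averaging 50 counts or more (-0.11, adjusted p 0.0266) and without control replicate 2 (-0.12, adjusted p 0.0191).

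PRC1, which bundles midzone microtubules, and NUSAP1, a microtubule-binding spindle protein, had few counts in every library. PRC1 had 111, 88 and 100 counts in the control group and 80, 65 and 37 after silencing, a log2 fold change of -0.74 (SE 0.206, edgeR adjusted p 0.00303). NUSAP1 had 24, 33 and 21 counts in the control group and 13, 11 and 19 after silencing, a log2 fold change of -0.82 (SE 0.416, edgeR adjusted p 0.104), and it passed without shMUC1 replicate 3, at -1.26 (adjusted p 0.0317). In GENCODE 29, 57.6% of PRC1 exon bases and 62.2% of NUSAP1 exon bases also lie in exons of another gene on the same strand, AC068831.7 and AC087721.2, neither of which is a row of the table. The next largest same-strand overlap among the 40 genes was 10.2%, for BUB1B with BUB1B-PAK6. Counts for PRC1 and NUSAP1 are therefore uncertain. On the opposite strand the largest overlaps were 15.9% of FOXM1 with ITFG2 and 12.5% of PLK1 with genes that include ERN2, and how strand was treated in counting is not given in the sources used here. Without PRC1 and NUSAP1, 22 of 38 were lower and the median log2 fold change was -0.20.

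Both genes grouped under cytokinesis were lower. Other genes that take part in it were given above with the passenger complex and the spindle genes, and did not all fall. ANLN, anillin, an actin-binding scaffold of the cleavage furrow (chr7:36389806-36453791), stood at 786, 805 and 779 CPM in control and 620, 594 and 623 CPM in shMUC1 libraries. It fell by 22.5%, a log2 fold change of -0.37 (SE 0.0293, edgeR adjusted p 3.15e-13). ECT2, the exchange factor that activates RhoA at the furrow, had a log2 fold change of -0.34 (SE 0.038, edgeR adjusted p 1.59e-09). The groups did not overlap for either gene.

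MKI67, the proliferation marker Ki-67, did not follow the falls. It stood at 406, 418 and 415 CPM in control and 429, 397 and 415 CPM in shMUC1 libraries, with a log2 fold change of 0.0033 and a 95% interval from -0.0622 to 0.0689. FOXM1, the transcription factor of many G2/M genes, stood at 332, 321 and 324 CPM in control and 342, 341 and 334 CPM in shMUC1 libraries. Its groups did not overlap, but the log2 fold change of 0.06 was not called (adjusted p 0.128). After correction for GC content and gene length, MKI67 and FOXM1 were called higher, at 0.0825 and 0.11. TOP2A, the topoisomerase that untangles sister chromatids, stood at 603, 592 and 552 CPM in control and 528, 497 and 534 CPM in shMUC1 libraries, a log2 fold change of -0.16 (SE 0.0335, edgeR adjusted p 9.24e-05).

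**Figure D3:**
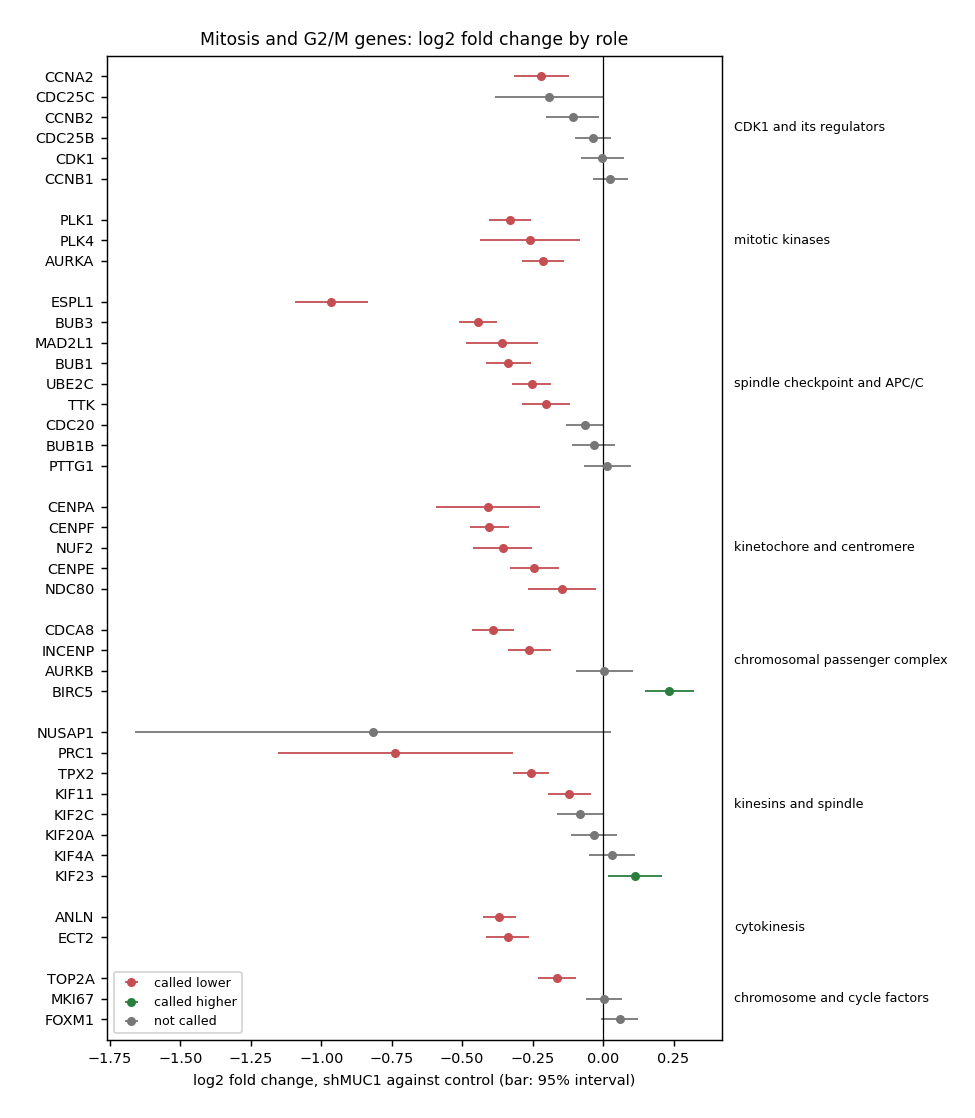
Log2 fold change in shMUC1 against control cells with 95% intervals (x axis, n = 3 libraries per group) for the 40 genes by role (y axis), coloured by edgeR call at an adjusted p under 0.05. The points run from -0.96 for ESPL1 to 0.24 for BIRC5, with 23 genes called lower and 2 called higher.

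Levels differed widely among the 40 genes. Per kilobase of annotated exon, mean CPM over both groups was highest for CCNB1 (213 CPM per kilobase), UBE2C (211) and CDC20 (190). It was lowest, apart from PRC1 and NUSAP1, for ESPL1 (4.73), CDC25C (5.05) and PLK4 (5.28). Both ends of this range on the per-length scale held genes that were called lower and genes that were not, as UBE2C and ESPL1 fell and CCNB1 and CDC25C were not called. Union exon length counts exons that these cells may not use, so the levels are approximate.

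Genes of the same processes outside the 40 were examined from a list of 127, of which 126 were tested. Of these, 48 were lower and 22 higher (38.1% and 17.5%), with a median log2 fold change of -0.07, beside 23.6% and 25.2% of all tested genes. Among the 88 of them averaging 1000 counts or more, 43.2% were lower and 19.3% higher, beside 29.4% and 39.4% of all genes of that depth. Kinetochore and centromere genes numbered 10 lower and 4 higher of 28, and kinesin and spindle genes 11 lower and 3 higher of 23. Condensin subunits, which compact chromosomes, numbered 5 lower and 1 higher of 8. Checkpoint and APC/C genes numbered 5 lower and 6 higher of 25, and held both ends of the list. ANAPC13, a small APC/C subunit, had a mean of 134 ± 7.02 CPM in control and 64.1 ± 2.65 CPM in shMUC1 cells (SD over 3 libraries), for a log2 fold change of -1.06 (SE 0.0461, edgeR adjusted p 8.82e-21). FAM83D, a spindle protein, had a log2 fold change of -0.72. CDC23 and ANAPC10, also APC/C subunits, had log2 fold changes of 0.53 and 0.49. CDC23 shares exon sequence with KIF20A on the opposite strand. The other genes called in that group were named after their values were seen. The checkpoint genes MAD1L1 and SPDL1, the APC/C inhibitor FBXO5 and the APC/C subunit CDC27 had log2 fold changes of -0.86, -0.56, -0.29 and -0.23. MAD1L1 averaged only 51 counts, so its value is uncertain (SE 0.259, edgeR adjusted p 0.0057). The APC/C subunits ANAPC1, ANAPC5, ANAPC11 and ANAPC16 had log2 fold changes from 0.21 to 0.35. The condensin subunits called, also named afterwards, were SMC4, NCAPG2, SMC2, NCAPD2 and NCAPG, from -0.28 to -0.12, and NCAPD3, at 0.40.

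Genes of the preceding cell cycle step were set beside them. Of 63 G1/S and DNA replication genes, 24 were higher and 13 lower (38.1% and 20.6%), with a median log2 fold change of 0.08, where 25.2% of all tested genes were higher and 23.6% lower. Among the 43 of them averaging 1000 counts or more, 46.5% were higher and 23.3% lower, beside 39.4% and 29.4% of all genes of that depth. These genes took 0.618%, 0.611% and 0.617% of unscaled counts in control and 0.615%, 0.608% and 0.612% in shMUC1 libraries, and the groups overlapped. Their summed CPM was 6142, 6105 and 6094 in control and 6194, 6166 and 6147 in shMUC1 libraries. On that scale every shMUC1 library lay slightly above every control library, so the reading depends on the scaling. The largest changes by the naming rule were rises of 0.53 for GINS1 (replicative helicase) and 0.49 for E2F2 (a G1/S transcription factor) and changes of -0.56 for POLA2 and -0.45 for RFC1 (a polymerase alpha subunit and a clamp loader subunit) on the log2 scale. The difference in median between the lists was not tested.

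**Figure D4:**
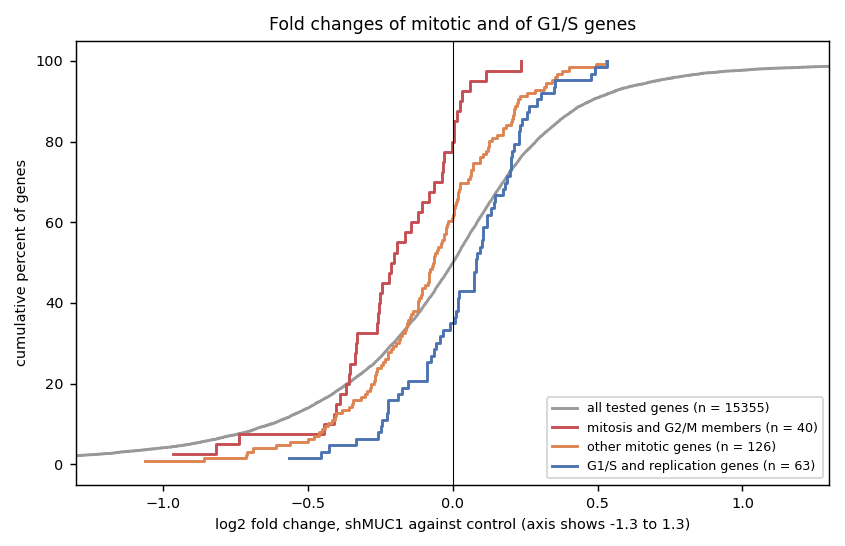
Cumulative percent of genes (y axis) against log2 fold change in shMUC1 over control cells (x axis, cut at -1.3 and 1.3) for all 15355 tested genes, the 40 mitosis and G2/M genes, 126 other mitotic genes and 63 G1/S genes. The curve of the 40 genes lies left of that of all genes over the middle of the range (median -0.21 against 0.00058) and the G1/S curve lies right of it near 0 (median 0.08).

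The promoters of the members were read because many late cell cycle genes share a CHR. RefSeq promoter windows (GRCh38.p14, 250 bases before the start to 50 from it) matched 33 of the 40 genes in 45 windows. The other 7 were AURKA, BUB3, TTK, TPX2, BIRC5, FOXM1 and UBE2C. The words searched, on both strands, were the CHR core TTTGAA with its variant TTCGAA, and CCAAT, the site of NF-Y. A CHR word was in 64.4% of the 45 member windows and in 16.4% of all 35116 promoter windows. CCAAT was in 71.1% and 34.6%. By gene, 26 of 33 members had a CHR word, of which 16 were called lower (median log2 fold change -0.26), and 7 had none, of which 2 were called lower (median -0.03). Over all tested genes with a promoter, the medians with and without a CHR word were 0.0044 and 0.01, and the shares called lower were 25.6% and 24%. The corresponding shares of the members were 61.5% and 28.6%. The members' genes were chosen for late cell cycle function, so a high share of CHR words is not independent of the choice. CCNB1, CCNA2, KIF20A, PTTG1 and AURKB had CCAAT and neither CHR word in these windows. Only TTTGAA and TTCGAA were searched, so a CHR of another spelling would have been missed.

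The bases from 80 before to 20 from the start are shown, 5′ to 3′ on the strand of the gene, for the 5 largest falls and the 4 uncalled genes nearest to no change among members that averaged 100 counts or more and held a CHR word in that stretch. They are given to show where the words lie in genes that fell and in genes that were not called. Capitals mark CHR words and CCAAT, each on either strand, and runs of capitals hold words that touch or overlap. The first 5 are genes that were called lower.
ESPL1 (chr12:53268219-53268318, plus strand): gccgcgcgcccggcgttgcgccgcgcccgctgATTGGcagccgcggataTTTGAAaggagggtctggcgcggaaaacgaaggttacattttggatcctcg
CENPA (chr2:26785976-26786075, plus strand): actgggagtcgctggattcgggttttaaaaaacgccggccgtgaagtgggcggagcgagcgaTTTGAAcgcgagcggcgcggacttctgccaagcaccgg
CDCA8 (chr1:37692436-37692535, plus strand): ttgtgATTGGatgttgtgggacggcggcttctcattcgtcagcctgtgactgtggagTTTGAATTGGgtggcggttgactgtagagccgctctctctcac
ANLN (chr7:36389782-36389881, plus strand): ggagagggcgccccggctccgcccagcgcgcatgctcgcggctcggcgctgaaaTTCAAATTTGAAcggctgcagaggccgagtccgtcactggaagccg
BUB1 (chr2:110678044-110678143, minus strand): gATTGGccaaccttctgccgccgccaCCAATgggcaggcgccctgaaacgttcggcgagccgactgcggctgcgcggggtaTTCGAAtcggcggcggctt
The next 4 are genes that were not called.
CDK1 (chr10:60778398-60778497, plus strand): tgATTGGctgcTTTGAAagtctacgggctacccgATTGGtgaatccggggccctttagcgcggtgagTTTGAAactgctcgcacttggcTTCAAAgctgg
MKI67 (chr10:128126404-128126503, minus strand): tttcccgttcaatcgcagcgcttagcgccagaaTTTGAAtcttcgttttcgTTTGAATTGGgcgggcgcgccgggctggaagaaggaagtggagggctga
KIF4A (chrX:70290024-70290123, plus strand): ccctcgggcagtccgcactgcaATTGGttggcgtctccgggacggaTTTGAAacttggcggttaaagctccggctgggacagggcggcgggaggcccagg
BUB1B (chr15:40160989-40161088, plus strand): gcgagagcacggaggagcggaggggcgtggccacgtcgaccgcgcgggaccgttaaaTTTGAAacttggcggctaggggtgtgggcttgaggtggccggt
ESPL1, CENPA, CDCA8 and ANLN hold TTTGAA just before the start, and so do CDK1, MKI67, KIF4A and BUB1B, while BUB1 holds TTCGAA just after it. ANLN, CDK1 and MKI67 hold more than 1 CHR word in the stretch. Holding a CHR word here was a condition for being shown, so these stretches do not bear on whether the word goes with the falls.

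A 7-base word in 3′ untranslated regions, ATCAGTA, was known from earlier work on these counts to go with lower expression in shMUC1 cells. It was in annotated 3′ untranslated regions of 12.7% of 13020 tested genes, with a median log2 fold change of -0.12 against 0.03 without it. Among the 40 mitotic genes, 2 held it (5.0%), TPX2 and NDC80, at -0.26 and -0.14, and 21 of the 38 genes without it were called lower (55.3%), with a median log2 fold change of -0.21. Over all tested genes with such a region, 43.2% of those with ATCAGTA and 22.3% of those without it were called lower. The shorter word within it, TCAGTA, was in 14 of the 40 mitotic genes (35%) and in 37.8% of the 13020 genes. Of the 14 members with TCAGTA, 12 were called lower (85.7%, median log2 fold change -0.30), and of the 26 without it, 11 were (42.3%, median -0.15). Over all 13020 genes the shares called lower were 33.7% with TCAGTA and 19.7% without it. ESPL1, BUB3, CENPF, CDCA8 and ANLN held TCAGTA and not ATCAGTA. CENPA, NUF2, BUB1 and PLK1 were also called lower, at -0.41, -0.36, -0.34 and -0.33, and held neither word. The longer a region is, the more often it holds a short word, and length was not taken into account here. The word came from these same counts, so its shares here are no independent support. Whether a site of this kind has a part in the falls was not tested.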

How the data were processed

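The table the authors deposited held whole-number counts for each gene symbol, not normalized, with 1 column per library. The submitters' processing notes name STAR 2.7.9a, featureCounts, CASAVA 1.8.2, DESeq2 1.24.0 and the build GRCh38.p7. The annotation release and the strand setting are not given in the sources used here. Libraries came from a stranded poly(A) kit. Values from 1 to 20 were even in 68.8% to 70.5% of cases per library, as would follow if each mate were counted, so halved counts were tried. Libraries of 1 group differed beyond sampling noise (chi-square over degrees of freedom, 2.79 to 5.55), so none was taken as a duplicate.

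Counts of all genes were fitted with edgeR 4.0.16 (quasi-likelihood, TMM, filterByExpr, group only) in R 4.3.3, two-sided, with Benjamini-Hochberg adjustment over 15355 genes and calls at an adjusted p under 0.05. SE and 95% intervals come from the quasi-likelihood statistic. CPM used TMM-scaled library sizes. On simulated counts for this comparison, 74 of 100 genes changed 1.25-fold and 100 of 100 changed 2-fold were recovered among 15355 genes, with 13 false calls. The genes given a change were drawn from the more highly expressed ones, above the level of PRC1 and NUSAP1. They were few beside the 48.7% of genes called in the data, so these rates need not hold there. Locations, exon lengths and overlaps came from GENCODE 29 (GRCh38), whose chromosome coordinates do not differ between patches. Values in each library are given for the 6 largest rises and falls among called members that averaged 100 counts or more (only 2 rises were called). They are also given for 10 core genes set by name, and for PTTG1, PRC1 and NUSAP1, chosen after their values were seen. From each comparison list, the 2 largest rises and falls with the same count minimum were named by log2 fold change, without values in each library. Members and lists were chosen with earlier results of these data known, so no test over a list was made. Alternatives were scaling by DESeq2 size factors or by library totals, all genes unfiltered, only genes averaging 50 counts or more, DESeq2 1.42.0, limma-voom (limma 3.58.1), a replicate block, each library left out, halved counts, correction for GC content and gene length (98.8% of tested genes had both values), and 2 fold-change minimums.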

Additional observations from a re-analysis of the deposited data

How the results depend on the processing

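The median over the 40 genes stayed between -0.24 and -0.18 in all 15 alternatives, and 21 to 26 genes were lower in each of these. Of 599 values of single members, 541 kept direction and side of the threshold, and 24 of 40 members did so in every alternative. Members higher, 2 in all, numbered 1 with DESeq2 size factors, library totals only, genes averaging 50 counts or more or DESeq2, 4 with correction for GC content and gene length, and 1 to 2 without one library. A fold change over 2 left 0 higher and 0 lower, and a minimum of a 25% rise or 20% fall left 0 and 12. By construction, such minimums can only lower these counts. Members near no change turned sign. With library totals only, AURKB was -0.017, MKI67 -0.0184 and PTTG1 -0.00719. With genes averaging 50 counts or more they were -0.0179, -0.0192 and -0.00785, and with counts halved AURKB was -0.00226 and MKI67 -0.00305. With correction for GC content and gene length, AURKB was -0.000441, CCNB1 -0.00965 and CDC25B 0.0327. CDK1 was 0.00786 with no low-count filter and 4.9e-05 with limma-voom. Without one library, AURKB ranged from -0.0608 to 0.0593, CCNB1 from -0.00589 to 0.0506, CDK1 from -0.0322 to 0.0244, KIF20A from -0.0937 to 0.00104 and MKI67 from -0.0213 to 0.0352. The median of other mitotic genes was -0.0891 with library totals only, -0.0895 with genes averaging 50 counts or more, -0.0343 with that correction, and from -0.0867 to -0.0595 without one library. The G1/S median was 0.0571 with library totals only and 0.0563 with genes averaging 50 counts or more. The causes were not tested. The largest shift of the median of all tested genes was -0.0326, with DESeq2. Same-numbered libraries did not deviate together (correlations 0.00493, -0.0324 and -0.0382). These values cannot show whether same-numbered cultures were handled together, which the labels do not say. With a replicate block 23 members were lower, 2 higher and the median was -0.21. PRC1 and NUSAP1 had the fewest counts and the largest SE of the 40 genes, so their values are the least certain.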
